A study of Mus musculus with 69 samples.

Results

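The 10 Kruppel-like factors (KLFs) followed here are Klf2, Klf3, Klf4, Klf6, Klf7, Klf9, Klf10, Klf11, Klf13 and Klf16. They were taken by symbol from 24537 genes listed in each table of normalised expression values, and all 10 were present and passed the filter on low values in each table tested. Poly(A) RNA was sequenced from bone marrow-derived macrophages (BMDMs), grown in macrophage colony-stimulating factor (M-CSF) from marrow of female mice aged 8 to 12 weeks. Cells were left untreated (basal) or received 20 ng/ml interleukin-4 (IL-4), a T helper type 2 cytokine. Cells of the laboratory strains C57BL/6J (C57), BALB/cJ (BALB) and NOD/ShiLtJ (NOD) and of the wild-derived strains SPRET/EiJ (SPRET) and PWK/PhJ (PWK) were compared at 24 hours in 29 libraries, with 3 libraries per group except basal PWK with 2. A separate time course held C57 and SPRET cells untreated or after 1, 6 or 24 hours of IL-4, with 2 libraries per group and 16 in all. A further 16 libraries, 2 per group, held Egr2 fl/fl cells (Egr2WT), which carry loxP-flanked Egr2 alleles without Cre, and LyzM-Cre Egr2 fl/fl cells (Egr2MKO), in which Cre is driven by the lysozyme M promoter of myeloid cells, at the same times. The 8 remaining libraries came from F1 hybrids of C57 with NOD or with SPRET, basal or after 24 hours of IL-4, and gave a value for each parental allele. Question by question, the design asks how IL-4 moved each factor, whether strains differed before and after IL-4, whether loss of Egr2 altered either, and whether the alleles of a hybrid differed.

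KLFs are zinc-finger transcription factors that bind GC-rich boxes and CACCC boxes, and they share this DNA-binding domain with the SP factors. Members differ outside it: Klf3 recruits CtBP corepressors, Klf9, Klf10, Klf11, Klf13 and Klf16 recruit Sin3 corepressor complexes, and Klf2, Klf4, Klf6 and Klf7 are mainly known as activators that can also repress. In macrophages Klf4 is known to be induced through STAT6 and to cooperate with it at alternative activation genes, Klf2 restrains inflammatory activation, and Klf6 is linked to inflammatory gene expression. Klf9 is a target of glucocorticoid and thyroid hormone receptors, and Klf10 and Klf11 were first described as early genes induced by transforming growth factor beta (TGF-beta).

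Values are TPM, the field's transcript level scaled for transcript length and library depth, as given by the authors for each library. Sequenced depth was 7020000 to 22500000 tags per library in the 5-strain table, 5700000 to 24000000 in the time course and 4690000 to 32900000 in the Egr2 table. No raw counts were used, so precision comes from the spread between libraries, which the study describes as biological replicates. Fold changes are differences of mean log2(TPM + 1), a scale that understates the change of low genes such as Klf11. Each is given as its value ± its standard error (SE) from the limma fit. That SE combines the number of libraries in the groups compared with a spread pooled over all groups of a table and moderated across genes. It does not measure the spread of the compared groups alone. Adjusted p values are from limma with Benjamini-Hochberg adjustment over all genes tested in a table (11907, 12088 and 12079 genes in the 5-strain, time course and Egr2 tables), and a change is said to pass where that p is below 0.05. Because the RNA was from whole cultures, fewer expressing cells and less RNA per cell cannot be told apart. All 7 macrophage markers were present in each table, with a summed level of 9350 TPM or more in every library of the 5-strain table, whereas the 4 T cell markers summed to at most 2.62 TPM there. The neutrophil list (S100a8, S100a9, Ly6g, Elane and Mpo) differed between strains, at 533 to 539 TPM in basal PWK, 334 to 395 TPM in basal SPRET, and group means of 115 TPM in basal C57, 55.6 TPM in basal BALB and 46.9 TPM in basal NOD. This sum came almost wholly from S100a8 and S100a9, since Ly6g, Elane and Mpo reached at most 0.276, 1.31 and 0.834 TPM. The fibroblast list reached 202 to 210.2 TPM in basal PWK through Dcn, and Mcpt8 of the mast cell and basophil list reached 8.88 TPM in SPRET. The other fibroblast genes, Col1a1, Col1a2 and Pdgfra, reached at most 0.066, 0.065 and 2.33 TPM in any strain. Cpa3 and Ms4a2 of the mast cell and basophil list reached at most 0.36 and 0.138 TPM. The part of these lists in the strain differences described next was not tested.

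Klf6 had the highest mean TPM of the 10 members in all 10 groups of the 5-strain table, at 36.0 to 71.5 TPM, and supplied 25.5% to 53.2% of the summed level of the family. Klf13 ranged from 11.2 to 36.8 TPM between groups and came second in 6 of the 10. Klf11 had the lowest mean in 8 of the 10 groups, at 0.594 TPM in BALB with IL-4 at the bottom of its range. The exceptions were basal NOD, where Klf2 was lowest at 0.838 TPM, and basal SPRET, where Klf9 was lowest at 0.367 TPM. Members differed widely in how far their level moved over the 10 groups. The highest group mean exceeded the lowest 54.5-fold for Klf9 and 37.4-fold for Klf2, against 1.99-fold for Klf6 and 1.97-fold for Klf11, with the other 6 members between 2.81-fold and 7.15-fold. In the time course Klf6 was again first in 6 of the 8 groups, and Klf4 was first in SPRET at 1 and 24 hours of IL-4. Klf6 was first in all 8 groups of the Egr2 table.

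**Figure D1:**
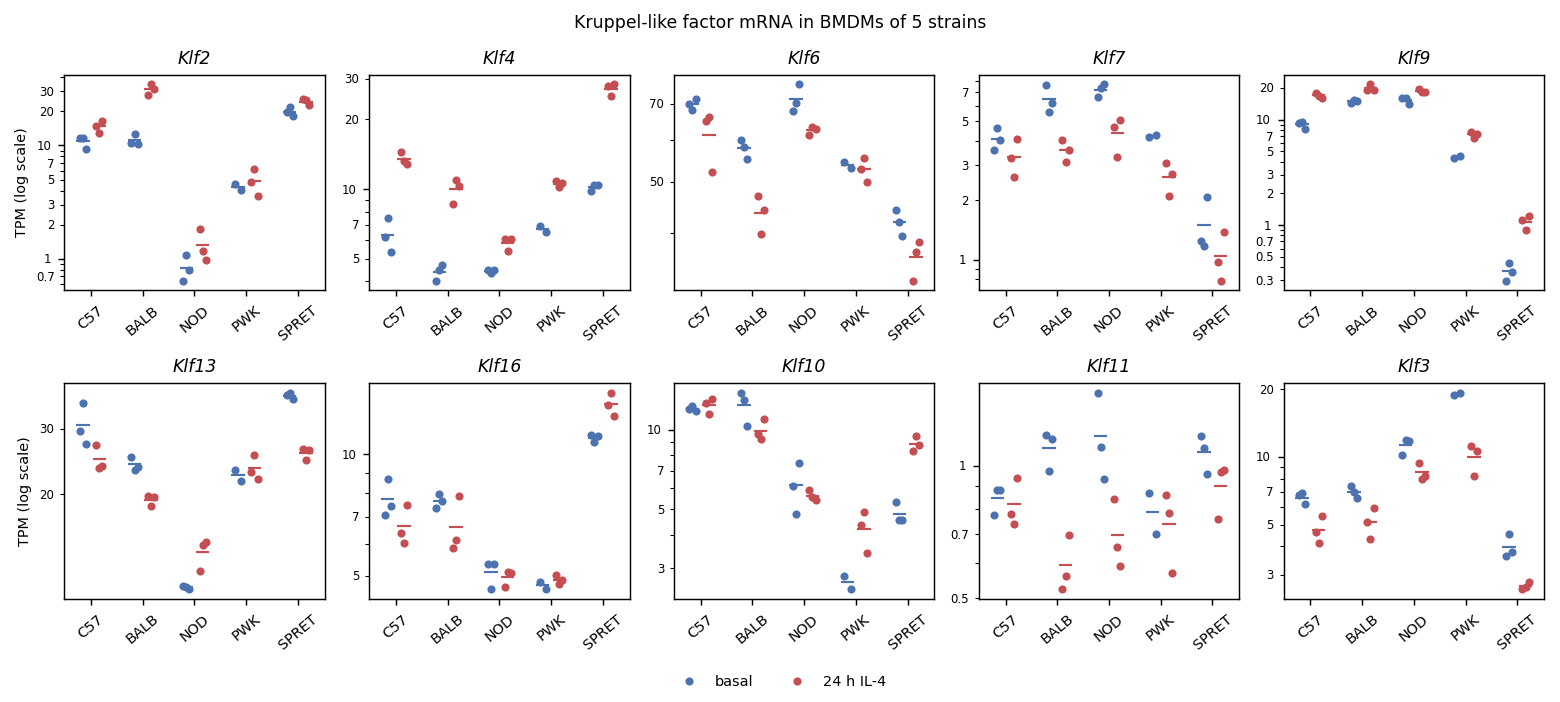
TPM (log axis) of each of the 10 Kruppel-like factors in every library of the 5 strains, basal or after 24 hours of IL-4; each point is 1 library and each bar the group mean. Klf2 in NOD and Klf9 in SPRET lie far below the other strains, and Klf4 is higher with IL-4 in every strain.

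Stretches of 250 bases upstream of the annotated start are shown for 4 members, so that stretches with and without a match to the EGR motif can be read side by side: Klf2, Klf3 and Klf4, the members with a match, and Klf9, which has none and was called in the most Egr2 comparisons. They are RefSeq sequences of build GRCm38.p6 on the strand of the gene, at chr8:72318812-72319061 (+) for Klf2, chr5:64803271-64803520 (+) for Klf3, chr4:55532476-55532725 (-) for Klf4 and chr19:23140976-23141225 (+) for Klf9. Capitals mark matches to the EGR motif GCGNGGGCG on either strand, where N is any base.
Klf2 promoter: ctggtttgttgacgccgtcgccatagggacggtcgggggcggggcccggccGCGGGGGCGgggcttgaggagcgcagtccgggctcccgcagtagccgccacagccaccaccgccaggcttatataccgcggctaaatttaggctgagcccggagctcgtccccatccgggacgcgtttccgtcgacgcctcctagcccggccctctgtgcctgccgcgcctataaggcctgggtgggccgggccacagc
Klf3 promoter: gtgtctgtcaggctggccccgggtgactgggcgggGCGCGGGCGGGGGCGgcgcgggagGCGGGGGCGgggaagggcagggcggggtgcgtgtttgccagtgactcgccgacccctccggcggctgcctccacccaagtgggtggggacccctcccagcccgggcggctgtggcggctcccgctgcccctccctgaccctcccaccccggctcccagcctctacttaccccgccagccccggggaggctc
Klf4 promoter: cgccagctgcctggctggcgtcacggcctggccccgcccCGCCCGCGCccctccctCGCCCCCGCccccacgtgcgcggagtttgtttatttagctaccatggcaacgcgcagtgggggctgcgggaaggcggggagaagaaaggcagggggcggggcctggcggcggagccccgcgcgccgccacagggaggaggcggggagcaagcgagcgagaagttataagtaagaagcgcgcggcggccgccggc
Klf9 promoter: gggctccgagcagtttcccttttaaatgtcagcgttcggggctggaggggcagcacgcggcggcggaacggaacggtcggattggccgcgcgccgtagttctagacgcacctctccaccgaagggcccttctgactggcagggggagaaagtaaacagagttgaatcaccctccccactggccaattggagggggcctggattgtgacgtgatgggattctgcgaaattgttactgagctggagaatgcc

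In the coordinates of the files (mm10) the members lay on 10 chromosomes, with Klf7 at chr1:64035671-64121389, Klf4 at chr4:55527137-55532475, Klf3 at chr5:64803523-64830129, Klf13 at chr7:63886351-63938915, Klf2 at chr8:72319062-72321654, Klf16 at chr10:80567121-80577296, Klf11 at chr12:24651371-24662782, Klf6 at chr13:5861489-5870393, Klf10 at chr15:38294406-38300711 and Klf9 at chr19:23141226-23166911. None shared a chromosome with another.

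Promoter sequences were found for 8 of the 10 members, all except Klf10 and Klf16, and were searched on both strands from 250 bases before to 50 bases after the start. The EGR motif lay in 3 of the 8 (3 matches in Klf3, of which 2 overlap, 2 in Klf4 and 1 in Klf2) and in 5.55% of 32851 promoters of that length. The windows of Klf6, Klf7, Klf9, Klf11 and Klf13 held none. In the Egr2 comparison described later, the called members Klf2 and Klf4 have a match, the called members Klf6, Klf7, Klf9 and Klf13 have none, and Klf3 was not called. Binding was not tested here. The study measured EGR2 binding by chromatin immunoprecipitation sequencing, and those data were not used. Sequence outside these windows was not searched. TTCNNNNGAA, the STAT6 form of the palindrome, lay in 0 of the 8 and in 6.95% of all promoters. CTANNNNTAG, a MEF2 form, lay only in the Klf2 window among the 8 and in 3.69% of all. The GC box GGGCGG, which KLF and SP factors bind and which overlaps the EGR matches, lay in 7 of the 8, with Klf9 as the exception, and in 35.7% of all. The CACCC box lay in 5 of the 8 (Klf2, Klf3, Klf7, Klf9 and Klf13) and in 57.5% of all.

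After 24 hours of IL-4, 32 of the 50 member and strain pairs passed, 16 higher and 16 lower, and the members split by gene rather than moving as a family. Klf4 and Klf9 rose in all 5 strains, Klf3 fell in all 5, and Klf7, Klf6, Klf13 and Klf11 fell in 2 or 3 each. By strain, 6 members passed in C57 beside 35.5% of all genes tested, 8 in BALB beside 34.2%, 6 in NOD beside 34.3%, 5 in PWK beside 24.7% and 7 in SPRET beside 44.4%. The median absolute change over the 50 pairs was 0.33 on the log2 scale, against 0.18 over all genes tested. The median change of all genes was itself 0.12 in NOD, 0.11 in SPRET and -0.11 in BALB, so small changes in these strains are given also after scaling each library by the median ratio to the others. Lost calls are named by gene for leaving out a library, median-ratio scaling, quantile normalisation and a replicate block. Those lists are not complete: losses with another pseudocount, no filter on low values or only the groups compared in the fit are given as counts at the end.

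Klf4, a reprogramming factor that also acts with STAT6 in alternative activation, rose in all 5 strains. In C57 its level was 6.22, 7.47 and 5.33 TPM in basal cells and 14.5, 13.2 and 12.8 TPM with IL-4, a log2 change of 0.99 ± 0.088, adjusted p = 1.2e-09. The treated libraries all lay above the basal ones. SPRET started higher, at 9.83, 10.4 and 10.4 TPM, and reached 27.9, 25.3 and 28.3 TPM (1.33 ± 0.088, adjusted p = 3.9e-12). BALB rose from 4.03, 4.48 and 4.7 TPM to 8.59, 11 and 10.4 TPM (1.02 ± 0.088, adjusted p = 1.5e-09). The rise was smaller in PWK, from 6.96 and 6.56 TPM to 10.8, 10.2 and 10.6 TPM (0.58 ± 0.10, adjusted p = 8.0e-05). In NOD it was smallest, from 4.46, 4.34 and 4.49 TPM to 6.09, 5.41 and 6.07 TPM (0.34 ± 0.088, adjusted p = 0.0049). The groups did not overlap in either strain, but the NOD call was lost with median-ratio scaling or quantile normalisation (adjusted p = 0.12 and 0.21).

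Klf9, the hormone-responsive repressor, rose in all 5 strains from very different starting levels. C57 went from 9.36, 9.52 and 8.17 TPM to 18.1, 16.8 and 16.2 TPM (0.85 ± 0.075, adjusted p = 1.2e-09), and PWK from 4.34 and 4.5 TPM to 7.58, 6.77 and 7.39 TPM (0.60 ± 0.084, adjusted p = 4.9e-06). SPRET libraries were below 1 TPM without IL-4, at 0.298, 0.439 and 0.363 TPM, and at 1.11, 0.896 and 1.21 TPM with it (0.60 ± 0.075, adjusted p = 4.1e-07). Thus the treated SPRET cells remained below the untreated cells of every other strain. BALB changed from 14.4, 15.3 and 15.1 TPM to 19.2, 21.7 and 19.1 TPM (0.39 ± 0.075, adjusted p = 2.5e-04). NOD changed from 16.1, 16.1 and 14 TPM to 19.4, 18.5 and 18.2 TPM (0.27 ± 0.075, adjusted p = 0.0081), a call lost without NOD basal replicate 3 (adjusted p = 0.063) and with median-ratio scaling or quantile normalisation (adjusted p = 0.41 and 0.2).

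Klf2, which restrains inflammatory activation, showed a response in which strains parted. BALB rose from 10.6, 12.6 and 10.2 TPM to 27.8, 34.6 and 31.8 TPM (1.42 ± 0.14, adjusted p = 2.6e-08), the largest of the 50 changes on the log2(TPM + 1) scale. As a ratio of mean TPM it was 2.82-fold, below the 2.93-fold of Klf9 in SPRET. C57 went from 11.6, 11.7 and 9.27 TPM to 15, 12.8 and 16.6 TPM (0.41 ± 0.14, adjusted p = 0.028). The groups did not overlap in either strain, but the C57 call was lost without C57 24-hour replicate 1, C57 24-hour replicate 3 or C57 basal replicate 3 (adjusted p = 0.063, 0.13 and 0.13). SPRET had 19.6, 21.6 and 18.2 TPM and 25.4, 25.1 and 22.6 TPM (0.29 ± 0.14, adjusted p = 0.11), which did not pass although the groups were apart. NOD stayed near 1 TPM, with 0.643, 1.07 and 0.798 TPM before and 1.84, 1.17 and 0.977 TPM after IL-4 (0.33 ± 0.14, adjusted p = 0.078). PWK had 4.6 and 4.07 TPM and 4.79, 6.15 and 3.55 TPM, overlapping groups (0.10 ± 0.16, adjusted p = 0.7).

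Among the members that fell, Klf3, the CtBP-binding repressor, did so in all 5 strains. PWK had by far the highest basal level, 18.9 and 19.2 TPM, and the largest fall, to 11.2, 8.22 and 10.6 TPM (-0.88 ± 0.12, adjusted p = 3.2e-06). In the other 4 strains the log2 changes were -0.41 in C57, -0.39 in BALB, -0.36 in NOD and -0.44 in SPRET, with no overlap between groups. The BALB call was lost without BALB 24-hour replicate 2 (adjusted p = 0.064) and with median-ratio scaling or quantile normalisation (adjusted p = 0.059 and 0.053). Klf7, best known from axon growth, fell in BALB from 7.66, 5.57 and 6.19 TPM to 4.01, 3.13 and 3.6 TPM (-0.70 ± 0.15, adjusted p = 0.001) and in NOD from 6.61, 7.37 and 7.68 TPM to 4.7, 3.3 and 5.1 TPM (-0.63 ± 0.15, adjusted p = 0.0029). Its fall in PWK (-0.53 ± 0.17, adjusted p = 0.025) was lost without PWK 24-hour replicate 2, PWK basal replicate 1 or PWK basal replicate 2 (adjusted p = 0.12, 0.093 and 0.14).

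Klf6, linked to inflammatory gene expression, fell in BALB from 59.9, 58.2 and 55.2 TPM to 46.9, 39.9 and 44.2 TPM (-0.40 ± 0.076, adjusted p = 2.3e-04). Smaller falls passed in C57 (-0.20 ± 0.076, adjusted p = 0.044) and SPRET (-0.22 ± 0.076, adjusted p = 0.024). The C57 call was lost without C57 24-hour replicate 3, C57 basal replicate 1, C57 basal replicate 2 or C57 basal replicate 3 (adjusted p = 0.061 to 0.37) and with median-ratio scaling or a replicate block (adjusted p = 0.075 and 0.051). The SPRET call was lost without SPRET 24-hour replicate 1, SPRET basal replicate 1 or SPRET basal replicate 2 (adjusted p = 0.16, 0.11 and 0.054). Klf13, a regulator of CCL5 in T cells, moved in opposite directions. It fell in SPRET from 37, 37.4 and 36 TPM to 26.4, 24.6 and 26.3 TPM (-0.50 ± 0.077, adjusted p = 9.9e-06) and rose in NOD from 11.3, 11.3 and 11.1 TPM to 12.5, 14.6 and 14.9 TPM (0.29 ± 0.077, adjusted p = 0.0055). It also fell in C57 (-0.29 ± 0.077, adjusted p = 0.0046) and BALB (-0.30 ± 0.077, adjusted p = 0.0039). The C57 call was lost without C57 basal replicate 2 (adjusted p = 0.06). The NOD call was lost with median-ratio scaling or quantile normalisation (adjusted p = 0.21 and 0.22), and the BALB call was lost with median-ratio scaling (adjusted p = 0.066).

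The TGF-beta early genes parted from each other. Klf10 rose in SPRET from 5.32, 4.55 and 4.57 TPM to 8.31, 9.45 and 8.72 TPM (0.76 ± 0.12, adjusted p = 7.7e-06) and in PWK from 2.81 and 2.5 TPM to 4.38, 4.9 and 3.43 TPM (0.51 ± 0.13, adjusted p = 0.0048), a call lost without PWK basal replicate 2 (adjusted p = 0.082). In C57 it lay at 12, 12.2 and 11.8 TPM and 12.6, 11.4 and 13 TPM (0.034 ± 0.12, adjusted p = 0.86). Klf11, near 1 TPM, fell in BALB from 1.18, 0.973 and 1.15 TPM to 0.524, 0.562 and 0.696 TPM (-0.40 ± 0.094, adjusted p = 0.002) and in NOD (-0.35 ± 0.094, adjusted p = 0.0058), a call lost without NOD basal replicate 1 (adjusted p = 0.059). Klf16, a Sin3-binding repressor, passed only in SPRET, from 11.2, 10.7 and 11.1 TPM to 13.3, 14.2 and 12.4 TPM (0.25 ± 0.088, adjusted p = 0.023). That call was lost without SPRET 24-hour replicate 1, SPRET 24-hour replicate 2 or SPRET basal replicate 2 (adjusted p = 0.051, 0.1 and 0.069) and with median-ratio scaling or quantile normalisation (adjusted p = 0.39 and 0.34). Beside these changes, the neutrophil list went with IL-4 from a mean of 115 to 19.5 TPM in C57, 55.6 to 18.4 TPM in BALB, 46.9 to 16 TPM in NOD, 367 to 259 TPM in SPRET and 536 to 559 TPM in PWK. In PWK, where Klf3 fell most, the fibroblast list went from 206 to 108 TPM, a sum almost wholly from Dcn. The summed macrophage list went from 23470 to 17280 TPM in C57 and from 29500 to 22080 TPM in BALB, and moved less in NOD (18160 to 17990), PWK (9677 to 9547) and SPRET (27590 to 26540). In that list Lyz2 reached 25930 TPM, against at most 4012 TPM for Cd68, the next highest. By gene, 11 of 35 macrophage marker pairs passed as higher and 11 as lower, or 10 and 15 with median-ratio scaling. Of all gene and strain pairs, 20.5% passed as higher and 14.1% as lower. The part of these lists in the changes was not tested.

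Before IL-4, the members had a median absolute difference from C57 of 0.53 on the log2 scale over 40 pairs, against 0.34 over all genes tested. Of the 40 pairs 30 passed, 11 higher and 19 lower than C57. By strain, 5 members passed in BALB beside 43.2% of all genes tested, 9 in NOD beside 74.2%, 7 in PWK beside 61.3% and 9 in SPRET beside 68.4%. The median of all genes was -0.30 for NOD and -0.16 for PWK relative to C57. Of the 7 macrophage markers, 6 were lower in basal NOD and 6 in basal PWK than in C57 (5 and 6 with quantile normalisation), with medians of -1.83 and -1.26, and their part in the member differences was not tested. Klf9 was lower in SPRET than in C57 by the widest margin, with 0.298, 0.439 and 0.363 TPM against 9.36, 9.52 and 8.17 TPM (-2.87 ± 0.075, adjusted p = 4.0e-21). It was also lower in PWK (-0.88 ± 0.084, adjusted p = 1.7e-09) and higher in BALB (0.67 ± 0.075, adjusted p = 6.2e-08) and NOD (0.71 ± 0.075, adjusted p = 6.9e-09). Klf2 was lowest in NOD, at 0.643, 1.07 and 0.798 TPM against 11.6, 11.7 and 9.27 TPM in C57 (-2.69 ± 0.14, adjusted p = 1.8e-14). It was lower in PWK (-1.15 ± 0.16, adjusted p = 1.1e-06), higher in SPRET (0.82 ± 0.14, adjusted p = 2.1e-05) and in BALB overlapped C57 (0.033 ± 0.14, adjusted p = 0.89). Libraries of NOD and C57, and of SPRET and C57, did not overlap for either gene.

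Klf10 was lowest in PWK, at 2.81 and 2.5 TPM against 12, 12.2 and 11.8 TPM in C57 (-1.83 ± 0.13, adjusted p = 6.5e-12), and lower in SPRET (-1.16 ± 0.12, adjusted p = 2.4e-09) and NOD (-0.88 ± 0.12, adjusted p = 2.6e-07). Klf3 was highest in PWK, at 18.9 and 19.2 TPM against 6.75, 6.87 and 6.16 TPM (1.4 ± 0.12, adjusted p = 2.1e-10), higher in NOD (0.69 ± 0.11, adjusted p = 2.8e-06) and lower in SPRET (-0.61 ± 0.11, adjusted p = 1.7e-05). PWK was thus lowest of the 5 strains for Klf10 and highest for Klf3. Klf13 was lowest in NOD, at 11.3, 11.3 and 11.1 TPM against 29.5, 35.2 and 27.2 TPM (-1.36 ± 0.077, adjusted p = 5.3e-14). Klf7 was lowest in SPRET, at 1.25, 1.18 and 2.07 TPM against 3.57, 4.64 and 4.02 TPM (-1.03 ± 0.15, adjusted p = 2.0e-06), and higher in NOD (0.70) and BALB (0.55). Klf6 was lower in SPRET (-0.73 ± 0.076, adjusted p = 5.6e-09), and Klf4 was higher there (0.62 ± 0.088, adjusted p = 8.7e-07). Klf4 was lower in BALB (-0.43), Klf6 in BALB and PWK (-0.27 and -0.37) and Klf13 in BALB and PWK (-0.33 and -0.42), while Klf13 was higher in SPRET (0.26). Klf16 was lower in PWK (-0.60) and higher in SPRET (0.46). Klf4 and Klf16 were lower in NOD (-0.43 and -0.51). The Klf4 call was lost with median-ratio scaling or quantile normalisation (adjusted p = 0.36 and 0.57), and the Klf16 call was lost with median-ratio scaling or quantile normalisation (adjusted p = 0.12 and 0.13). Klf11 was higher in NOD (0.23), a call lost without C57 basal replicate 1 or NOD basal replicate 1 (adjusted p = 0.1 and 0.24).

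The 24-hour response itself differed from that of C57 in 11 of 40 pairs, 6 higher and 5 lower, or 3 higher and 10 lower with median-ratio scaling. The median of all genes for this difference was 0.17 in NOD, 0.13 in PWK and 0.16 in SPRET. Per strain 2 members passed in BALB beside 15.8% of all genes tested, 3 in NOD beside 33.3%, 3 in PWK beside 22.4% and 3 in SPRET beside 33.4%. The median absolute difference was 0.25 for members and 0.22 for all genes. Klf2 rose more in BALB than in C57 (difference 1.01 ± 0.20, adjusted p = 0.0012), whereas Klf9 rose less there (-0.46 ± 0.11, adjusted p = 0.0043). In NOD, Klf4 (-0.65 ± 0.12, adjusted p = 3.1e-04) and Klf9 (-0.58 ± 0.11, adjusted p = 2.1e-04) rose less than in C57, and Klf13 moved the other way from C57 (0.58 ± 0.11, adjusted p = 2.9e-04). These 5 differences kept their sign and call with median-ratio scaling. In SPRET, Klf10 rose where C57 was flat (0.72 ± 0.16, adjusted p = 0.0014). The other 5 differences were less firm. Klf16 in SPRET (0.45) was lost with median-ratio scaling or quantile normalisation (adjusted p = 0.17 and 0.12), and Klf4 in SPRET (0.34) was lost without C57 24-hour replicate 2, C57 24-hour replicate 3, C57 basal replicate 1, C57 basal replicate 2, SPRET 24-hour replicate 1, SPRET 24-hour replicate 3, SPRET basal replicate 1, SPRET basal replicate 2 or SPRET basal replicate 3 (adjusted p = 0.053 to 0.14) and with median-ratio scaling or quantile normalisation (adjusted p = 0.42 and 0.33). Klf13 in PWK (0.34) was lost without C57 24-hour replicate 2, C57 24-hour replicate 3, C57 basal replicate 2, PWK 24-hour replicate 2 or PWK basal replicate 2 (adjusted p = 0.077 to 0.16) and with median-ratio scaling or quantile normalisation (adjusted p = 0.24 and 0.17). Klf3 in PWK (-0.47) was lost without C57 24-hour replicate 3, C57 basal replicate 1, C57 basal replicate 3, PWK 24-hour replicate 2, PWK basal replicate 1 or PWK basal replicate 2 (adjusted p = 0.051 to 0.12). Klf4 in PWK (-0.41) was lost without C57 24-hour replicate 1, C57 basal replicate 3, PWK 24-hour replicate 2, PWK basal replicate 1 or PWK basal replicate 2 (adjusted p = 0.056 to 0.092). With median-ratio scaling the PWK differences of Klf3 and Klf4 were larger, at -0.63 and -0.57, and passed by limma (adjusted p = 0.0052 and 0.0028).

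**Figure D2:**
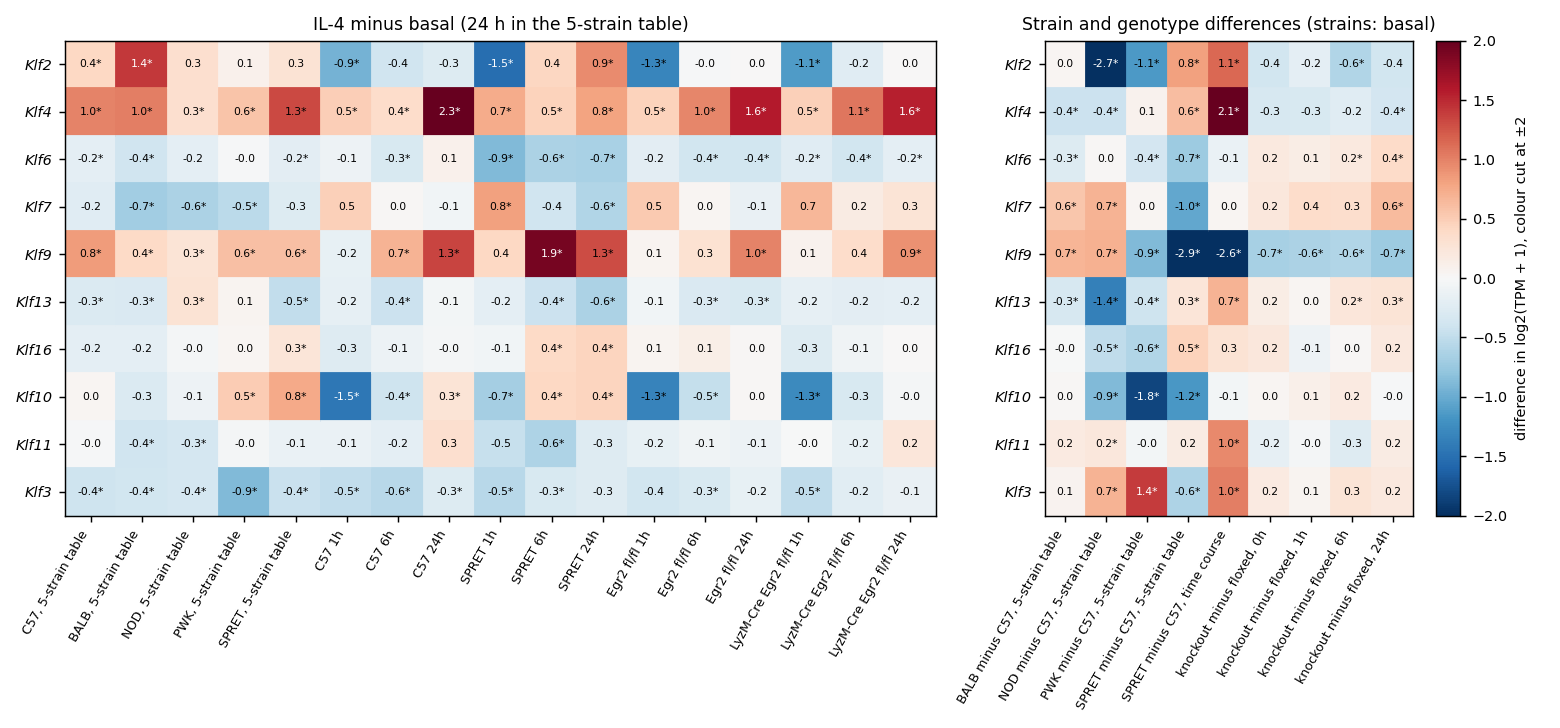
Heat map of log2 fold changes (log2(TPM + 1) scale) of the 10 members, by contrast, for the 5-strain, time course and Egr2 tables; each cell prints its value and an asterisk marks an adjusted p below 0.05. Klf4 and Klf9 are higher in every 24-hour IL-4 column, Klf10 and Klf2 fall at 1 hour, and Klf9 is lower in all 4 Egr2MKO columns.

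The time course showed an early phase that the 24-hour comparison does not hold. At 1 hour, Klf2, Klf3 and Klf10 fell and Klf4 rose in both C57 and SPRET, Klf6 fell and Klf7 rose in SPRET, and 4 members passed in C57 beside 3.95% of all genes tested and 6 in SPRET beside 8.75%. Klf10 in C57 went from 17.4 and 17.7 TPM to 5.79 and 5.79 TPM at 1 hour (-1.45 ± 0.078, adjusted p = 1.8e-07) and in SPRET from 15.5 and 18.4 TPM to 9.96 and 10.4 TPM (-0.69 ± 0.078, adjusted p = 6.7e-05). Klf2 went from 11 and 16.7 TPM to 6.21 and 6.91 TPM in C57 (-0.95 ± 0.18, adjusted p = 0.0091) and from 34.9 and 28.1 TPM to 12.1 and 8.65 TPM in SPRET (-1.52 ± 0.18, adjusted p = 1.1e-04). Neither gene overlapped between times, but the C57 call was lost without C57 1-hour replicate 1 or C57 basal replicate 2 (adjusted p = 0.09 and 0.12). Klf3 fell in C57 (-0.49 ± 0.10, adjusted p = 0.01) and SPRET (-0.55 ± 0.10, adjusted p = 0.0024), and its C57 call was lost without C57 1-hour replicate 1 or C57 basal replicate 2 (adjusted p = 0.14 and 0.11). Klf7 went from 11.7 and 13.8 TPM to 23.4 and 23 TPM in SPRET (0.82 ± 0.14, adjusted p = 0.0022) and from 12.2 and 12.5 TPM to 16.8 and 18.4 TPM in C57, which did not pass (0.48 ± 0.14, adjusted p = 0.11).

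At 6 hours, 6 members passed in C57 beside 20.4% of all genes tested and 8 in SPRET beside 30.6%, and at 24 hours 4 passed in C57 beside 39.4% and 8 in SPRET beside 36.6%. Over the 3 times 36 of 60 pairs passed, 17 higher and 19 lower. Klf4 rose at all 3 times in both strains but with different courses. In C57 it had 8.5 and 8.96 TPM at the start, 12.5 and 12.9 TPM at 1 hour, 11.6 and 11.4 TPM at 6 hours and 46.7 and 46 TPM at 24 hours (24-hour change 2.28 ± 0.050, adjusted p = 2.1e-11). In SPRET it started at 40.7 and 41.5 TPM and had 70 and 68.4, 56.5 and 57.5 and 73.5 and 71.9 TPM at the 3 times (24-hour change 0.81 ± 0.050, adjusted p = 8.7e-08). Most of the C57 rise thus came after 6 hours, while SPRET was near its final level by 1 hour. Over the same times the neutrophil list in C57 went from 79.8 to 71.5, 58.1 and 6.86 TPM, with its lowest level at 24 hours, and in SPRET from 61.9 to 63.7, 60.6 and 77.7 TPM. This sum was mostly S100a8, since S100a9, Ly6g, Elane and Mpo reached at most 0.343, 0, 0.581 and 0.769 TPM there. The dendritic cell list in SPRET went from 3.15 TPM in basal cells to 7.46 TPM at 24 hours. Of its genes, Zbtb46 reached 6.69 TPM in the time course, Xcr1 at most 2.04 TPM and Flt3 at most 0.082 TPM. The macrophage list went from 32050 to 22080 TPM in C57 and from 52470 to 40370 TPM in SPRET between basal cells and 24 hours. In that list Lyz2 reached 48270 TPM, against at most 2804 TPM for Cd68, the next highest. By gene, 6 of 42 macrophage marker pairs passed as higher and 14 as lower over the 3 times, beside 11.4% and 11.9% of all genes. The part of these lists in the courses was not tested. Klf9 in C57 had 14.4 and 15.1 TPM at the start, 12.9 and 13.2 TPM at 1 hour, 23 and 25.9 TPM at 6 hours and 40.8 and 37.1 TPM at 24 hours. In SPRET it had 1.5 and 1.76, 1.82 and 3.33, 9.27 and 8.54 and 5.46 and 5.48 TPM, with its highest level at 6 hours. The changes passed at 6 hours (0.69 ± 0.15, adjusted p = 0.0066 in C57 and 1.91 ± 0.15, adjusted p = 1.1e-06 in SPRET) and at 24 hours (1.34 and 1.3), but the C57 call at 6 hours was lost without C57 6-hour replicate 2 (adjusted p = 0.059).

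Klf2 recovered from its early fall in a strain-dependent way. C57 had 10 and 10.2 TPM at 6 hours and 10.3 and 11.8 TPM at 24 hours (-0.28 ± 0.18, adjusted p = 0.26), within or below its basal range, and SPRET had 42.2 and 42.9 and 55.1 and 67.5 TPM (0.94 ± 0.18, adjusted p = 0.0014). At 24 hours SPRET libraries were all above their basal level. Klf6 in SPRET had 92.1 and 99.8 TPM at the start and 51.9 and 51.5, 59.8 and 63.6 and 58.9 and 62.6 TPM later, a fall that passed at all 3 times (-0.88, -0.63 and -0.65). In C57 it passed only at 6 hours (-0.32 ± 0.064, adjusted p = 0.0037). Klf13 fell in SPRET at 6 and 24 hours (-0.43 and -0.63) and in C57 at 6 hours (-0.43). Klf10 was above basal in SPRET at 6 and 24 hours (0.42 and 0.45) but below it in C57 at 6 hours (-0.41) and above it at 24 hours (0.28 ± 0.078, adjusted p = 0.013), a call lost without C57 24-hour replicate 1 or C57 basal replicate 1 (adjusted p = 0.058 and 0.063). Klf16 rose in SPRET at 6 and 24 hours (0.40 and 0.44), where the 6-hour call was lost without SPRET 6-hour replicate 1 or SPRET basal replicate 1 (adjusted p = 0.2 and 0.19) and with quantile normalisation (adjusted p = 0.062) and the 24-hour call was lost without SPRET 24-hour replicate 2 or SPRET basal replicate 1 (adjusted p = 0.098 and 0.12). Klf11 passed only in SPRET at 6 hours (-0.62 ± 0.17, adjusted p = 0.015), a call lost without SPRET 6-hour replicate 2 or SPRET basal replicate 2 (adjusted p = 0.097 and 0.11). Klf3 stayed lower in C57 at 6 hours (-0.55 ± 0.10, adjusted p = 0.0014) and 24 hours (-0.27) and in SPRET at 6 hours (-0.32). The C57 call at 24 hours was lost without C57 24-hour replicate 1, C57 24-hour replicate 2, C57 basal replicate 1 or C57 basal replicate 2 (adjusted p = 0.088 to 0.19), and the SPRET call was lost without SPRET 6-hour replicate 1 or SPRET basal replicate 2 (adjusted p = 0.18 and 0.21). Klf7 in SPRET ended below its start (-0.61 ± 0.14, adjusted p = 0.005).

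**Figure D3:**
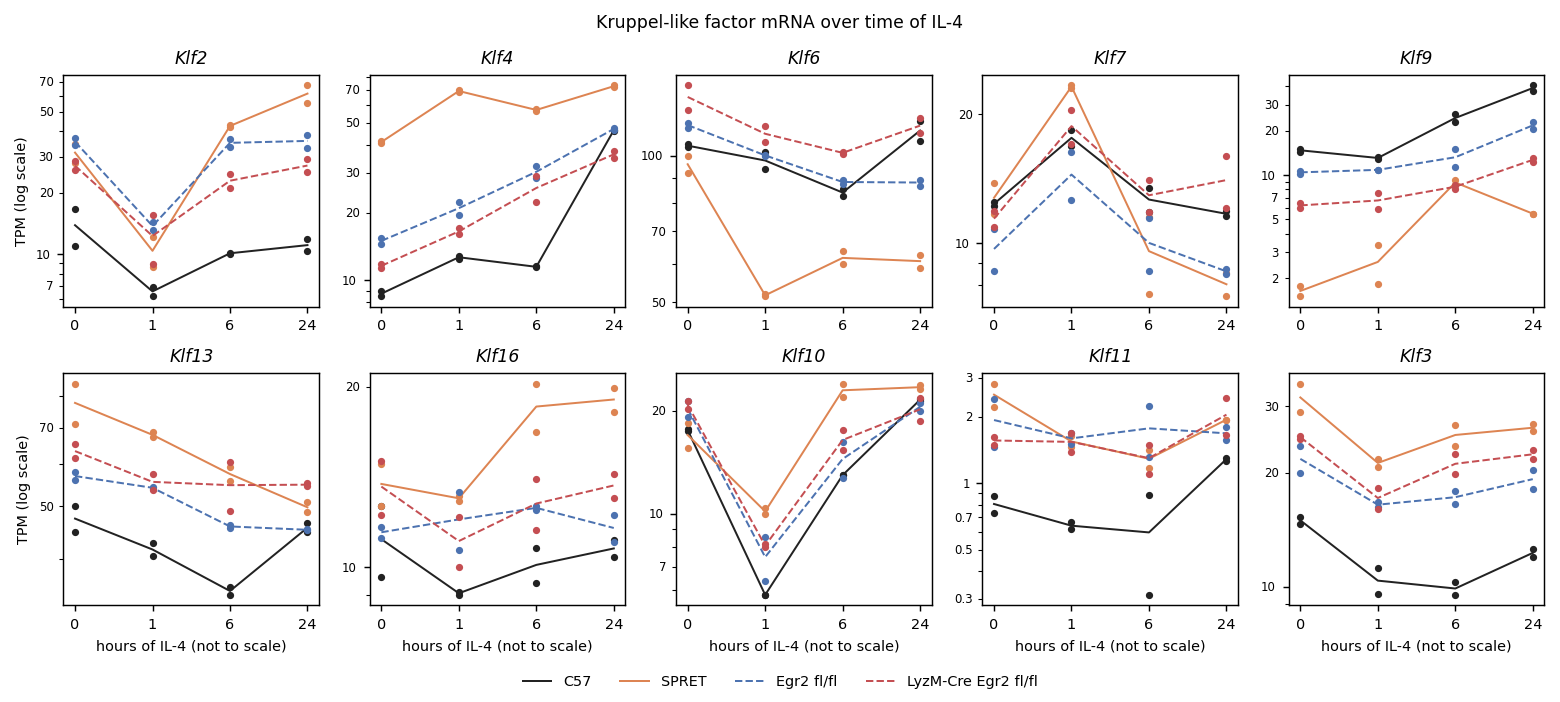
TPM (log axis) of the 10 members against time in IL-4 (0, 1, 6 and 24 hours, evenly spaced) in C57, SPRET, Egr2WT (Egr2 fl/fl) and Egr2MKO (LyzM-Cre Egr2 fl/fl). Each point is 1 library and each line joins the means of 2 libraries. The C57 and SPRET libraries and the Egr2 libraries are separate sets. Klf10 and Klf2 dip at 1 hour, and Klf4 in C57 rises mainly between 6 and 24 hours.

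Tested directly, the response differed between SPRET and C57 in 9 of 30 pairs, 4 higher and 5 lower in SPRET: 2 members at 1 hour beside 2.32% of all genes tested, 3 at 6 hours beside 11.1% and 4 at 24 hours beside 28.9%. Klf10 fell less in SPRET at 1 hour (0.77 ± 0.11, adjusted p = 0.002) and moved upward relative to C57 at 6 hours (0.83 ± 0.11, adjusted p = 3.7e-04). Klf6 fell more in SPRET at 1 hour (-0.78 ± 0.091, adjusted p = 4.6e-04). At 24 hours it fell in SPRET but not in C57 (-0.75 ± 0.091, adjusted p = 6.6e-05), where it had 103.9 and 105.7 TPM before and 107.1 and 118 TPM after IL-4. Its difference at 6 hours (-0.31 ± 0.091, adjusted p = 0.046) was lost without C57 6-hour replicate 1, C57 6-hour replicate 2, C57 basal replicate 1, C57 basal replicate 2, SPRET 6-hour replicate 1, SPRET 6-hour replicate 2 or SPRET basal replicate 2 (adjusted p = 0.057 to 0.14) and with quantile normalisation (adjusted p = 0.052). Klf9 rose more in SPRET at 6 hours (1.22 ± 0.22, adjusted p = 0.0029). At 24 hours Klf4 rose less in SPRET (-1.48 ± 0.071, adjusted p = 5.5e-08), Klf2 rose where C57 did not (1.22 ± 0.26, adjusted p = 0.0038) and Klf13 fell more (-0.58 ± 0.11, adjusted p = 0.002).

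The 5-strain and time course tables both held basal and 24-hour cells of C57 and SPRET, and the members did not behave alike in them. In basal cells of the time course, 6 of 10 members passed between SPRET and C57 (5 higher, 1 lower) beside 60.7% of all genes tested. Klf9 was lower in SPRET in both, by 2.87 on the log2 scale in the 5-strain table and 2.58 in the time course, where its values were 1.5 and 1.76 TPM in SPRET and 14.4 and 15.1 TPM in C57. Klf2 (1.15 in the time course) and Klf4 (2.11) were higher in both. Klf3 passed in opposite directions, at -0.61 in the 5-strain table and 1.03 ± 0.10, adjusted p = 1.4e-06 in the time course, with 28.9 and 34.4 TPM in SPRET and 14.6 and 15.3 TPM in C57. Klf7 and Klf10, lower in SPRET by 1.03 and 1.16 among the 5 strains, were level in the time course (0.040 and -0.050). At 24 hours Klf4 in C57 rose by 0.99 in the one and 2.28 in the other, and Klf2 in C57 by 0.41 in the one with -0.28 ± 0.18 in the other. The 24-hour response in SPRET had the same sign for all 10 members in both tables, and that in C57 for 7 of 10. Over all genes tested in both, the Pearson r of this response was 0.767 in SPRET and 0.728 in C57. The basal difference had the same sign for 8 of 10 members and for 74.9% of 11463 genes tested in both tables (r = 0.837). Among the 2123 genes past 2-fold in the 5-strain table, 94.5% had the same sign. In basal cells of the time course the mast cell and basophil list summed to 15.6 TPM in SPRET and 0.244 TPM in C57, against 5.53 and 0.307 TPM in the 5-strain table. Over the time course its genes Mcpt8, Cpa3 and Ms4a2 reached at most 20.2, 2.5 and 0.439 TPM. The neutrophil list there was 61.9 TPM in SPRET, against 367 TPM in the 5-strain table. In the time course that sum was almost wholly S100a8, with S100a9 at most 0.343 TPM, whereas S100a9 reached up to 274 TPM in a library of the 5-strain table. The cause of the differences between the tables was not tested.

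Egr2, an IL-4-induced zinc-finger factor, was reduced in the cells labelled as knockout, which checks the genotype. It had 23.6 and 21.3 TPM in basal Egr2WT against 0.859 and 0.854 TPM in basal Egr2MKO, and 100.7 and 99.5 TPM against 4.72 and 7.05 TPM at 24 hours. Between Egr2MKO and Egr2WT at a matched time, 11 of 40 member pairs passed, 5 higher and 6 lower (3 higher and 6 lower with median-ratio scaling), of which 4 were Klf9. The count was 6 without Egr2WT 24-hour replicate 1 or replicate 2 and 7 without Egr2WT 6-hour replicate 1. By time, 1 member passed in basal cells beside 11.5% of all genes tested, 1 at 1 hour beside 11.4%, 4 at 6 hours beside 20.6% and 5 at 24 hours beside 37.4%. No group carried Cre without floxed Egr2, so loss of Egr2 and presence of Cre cannot be told apart in these differences. Klf9 was lower in Egr2MKO than in Egr2WT at all 4 times. Its basal values were 10.2 and 10.7 TPM in Egr2WT and 6.02 and 6.43 TPM in Egr2MKO (-0.66 ± 0.13, adjusted p = 0.0056). At 24 hours they were 23 and 20.5 TPM and 12.2 and 13.2 TPM (-0.73 ± 0.13, adjusted p = 9.0e-04). The genotypes did not overlap at any time, and the differences at 1 and 6 hours were -0.63 ± 0.13, adjusted p = 0.0081 and -0.59 ± 0.13, adjusted p = 0.0072. The basal call was lost without Egr2MKO basal replicate 1 (adjusted p = 0.054), the 1-hour call was lost without Egr2MKO 1-hour replicate 2, Egr2WT 1-hour replicate 1 or Egr2WT 1-hour replicate 2 (adjusted p = 0.095, 0.053 and 0.054) and the 6-hour call was lost without Egr2WT 6-hour replicate 1 (adjusted p = 0.06), whereas the 24-hour call held without any 1 library.

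Klf4 was lower in Egr2MKO at 24 hours, with 35 and 37.5 TPM against 46.7 and 47.3 TPM (-0.37 ± 0.11, adjusted p = 0.02), and Klf2 at 6 hours, with 24.7 and 21.1 TPM against 36.9 and 33.4 TPM (-0.60 ± 0.19, adjusted p = 0.041). The Klf4 call was lost without Egr2MKO 24-hour replicate 1, Egr2WT 24-hour replicate 1 or Egr2WT 24-hour replicate 2 (adjusted p = 0.11, 0.071 and 0.084). The Klf2 call was lost without Egr2MKO 6-hour replicate 2, Egr2WT 6-hour replicate 1 or Egr2WT 6-hour replicate 2 (adjusted p = 0.19, 0.16 and 0.09). In basal cells the differences were -0.34 for Klf4 and -0.38 for Klf2, which did not pass. Klf6 was higher in Egr2MKO at 24 hours, with 111 and 119 TPM against 86.8 and 89.3 TPM (0.38 ± 0.057, adjusted p = 2.4e-04), and this held without any 1 library. At 6 hours its difference of 0.20 was lost without Egr2MKO 6-hour replicate 1, Egr2MKO 6-hour replicate 2, Egr2WT 6-hour replicate 1 or Egr2WT 6-hour replicate 2 (adjusted p = 0.059 to 0.12) and with quantile normalisation (adjusted p = 0.053). Klf7 was also higher at 24 hours, with 12.1 and 16 TPM against 8.71 and 8.47 TPM (0.64 ± 0.17, adjusted p = 0.013), and Klf13 at 6 and 24 hours (0.24 and 0.27). The Klf7 call was lost without Egr2MKO 24-hour replicate 2, Egr2WT 24-hour replicate 1 or Egr2WT 24-hour replicate 2 (adjusted p = 0.12, 0.051 and 0.063) and with quantile normalisation (adjusted p = 0.055). The Klf13 call at 6 hours was lost without Egr2MKO 6-hour replicate 2, Egr2WT 6-hour replicate 1 or Egr2WT 6-hour replicate 2 (adjusted p = 0.32, 0.13 and 0.12) and with median-ratio scaling or quantile normalisation (adjusted p = 0.086 and 0.078), and that at 24 hours was lost without Egr2MKO 24-hour replicate 1, Egr2MKO 24-hour replicate 2, Egr2WT 24-hour replicate 1 or Egr2WT 24-hour replicate 2 (adjusted p = 0.056 to 0.068) and with median-ratio scaling or quantile normalisation (adjusted p = 0.23 and 0.12). The median difference of all genes was 0.12 at 24 hours. Klf3, Klf10, Klf11 and Klf16 passed at none of the 4 times. The neutrophil list was lower in Egr2MKO than in Egr2WT at all 4 times, with mean sums of 41.7 against 62.6 TPM in basal cells, 43.8 against 75.8 TPM at 1 hour, 20.4 against 48.4 TPM at 6 hours and 13.4 against 19.8 TPM at 24 hours. The macrophage list summed to 20770 against 25190 TPM in basal cells and 13340 against 15650 TPM at 24 hours, and was lower in Egr2MKO at all 4 times. That sum was mostly Lyz2, the gene whose promoter drives Cre here, which passed as lower at all 4 times. By gene, 22 of 28 macrophage marker pairs passed, 16 higher and 6 lower. Of all gene and time pairs, 20.2% passed, 12.4% as higher and 7.89% as lower. The part of these lists in the member differences was not tested.

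The IL-4 response of the members was not found to differ between the genotypes. Of 30 pairs 0 passed by limma, with 1 at an unadjusted p below 0.05 and a lowest adjusted p of 0.15, and no other tool was run. Of all genes, 0.0166% passed at 1 hour, 1.1% at 6 hours and 12.6% at 24 hours. In Egr2WT, 12 of 30 response pairs passed, 4 higher and 8 lower (3 higher and 10 lower with median-ratio scaling): 3 at 1 hour beside 3.24% of all genes tested, 5 at 6 hours beside 25.5% and 4 at 24 hours beside 30.3%. At 6 hours Klf6 fell in Egr2WT (-0.38 ± 0.057, adjusted p = 3.6e-04), as did Klf10 (-0.47), Klf13 (-0.30) and Klf3 (-0.32). The Klf10 call was lost without Egr2WT 6-hour replicate 2, Egr2WT basal replicate 1 or Egr2WT basal replicate 2 (adjusted p = 0.21, 0.05 and 0.15). The Klf13 call was lost without Egr2WT 6-hour replicate 1 or Egr2WT basal replicate 2 (adjusted p = 0.054 and 0.072). The Klf3 call was lost without Egr2WT 6-hour replicate 1, Egr2WT 6-hour replicate 2 or Egr2WT basal replicate 1 (adjusted p = 0.15, 0.055 and 0.24). Klf4 in Egr2WT went from 15.5 and 14.5 TPM to 22.3 and 19.5, 32.1 and 28.5 and 46.7 and 47.3 TPM at the 3 times, and in Egr2MKO from 11.3 and 11.9 TPM to 16 and 17, 22.3 and 29.1 and 35 and 37.5 TPM. The log2 change at 24 hours was 1.59 ± 0.11, adjusted p = 3.4e-07 in Egr2WT and 1.56 ± 0.11, adjusted p = 3.4e-07 in Egr2MKO. The difference between these responses was -0.026 ± 0.15, adjusted p = 0.95. The Egr2WT rise at 1 hour (0.45 ± 0.11, adjusted p = 0.044) was lost without Egr2WT 1-hour replicate 1, Egr2WT 1-hour replicate 2, Egr2WT basal replicate 1 or Egr2WT basal replicate 2 (adjusted p = 0.07 to 0.32) and with median-ratio scaling, quantile normalisation or a replicate block (adjusted p = 0.077, 0.066 and 0.064). Klf9 changed at 24 hours by 0.99 ± 0.13 in Egr2WT and 0.92 ± 0.13 in Egr2MKO, with a difference of -0.069 ± 0.18, adjusted p = 0.86. The early falls passed in both genotypes. Klf10 at 1 hour went from 19.2 and 21.4 TPM to 8.57 and 6.37 TPM in Egr2WT (-1.34 ± 0.14, adjusted p = 7.9e-05) and from 20.2 and 21.4 TPM to 7.98 and 8.15 TPM in Egr2MKO (-1.27 ± 0.14, adjusted p = 1.0e-04). Klf2 changed at 1 hour by -1.31 ± 0.19, adjusted p = 0.0012 in Egr2WT and -1.13 ± 0.19, adjusted p = 0.0032 in Egr2MKO.

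In F1 hybrids both alleles share one cell, and the files give a TPM weighted by the share of reads that carry variants of each parent. Depth is not given for these 8 libraries, so alleles are described by direction and size, with no test. In the C57 and SPRET hybrid all 10 members had values for both alleles. Klf9 had more from the C57 allele in all 4 libraries, with 9.35 and 8.20 from C57 against 5.6 and 4.9 from SPRET in basal cells, and 14.3 and 13.7 against 8.08 and 10.4 with IL-4. The mean log2 ratio, with 1 added to each value, was 0.65 in basal cells and 0.56 with IL-4, beside differences of 2.87 and 3.12 between the parental strains. All parental values given for the hybrids are from the 5-strain table. Klf2 had more from the SPRET allele in all 4, with 68.8 and 72.6 from SPRET against 58.2 and 61.4 from C57 in basal cells, and 154 and 287 against 112 and 102 with IL-4. The mean log2 ratio of C57 to SPRET was -0.24 in basal cells and -0.97 with IL-4 (parental strains -0.82 and -0.69). Over all 4 libraries the mean was 0.60 for Klf9 and -0.60 for Klf2, and without IL-4 replicate 2 or replicate 1 only 1 of these 2 members remained beyond a 1.5-fold mean. Each kept the direction of the difference between the parental strains. For Klf4, SPRET was higher in 3 of 4 libraries, with a mean log2 ratio of -0.099 in basal cells and -0.54 with IL-4, and the rise with IL-4 was 1.15 from the C57 allele and 1.60 from the SPRET allele on the log2 scale. For the other 7 members the mean over all 4 libraries lay between -0.026 for Klf16 and 0.17 for Klf10. For some of them basal and IL-4 libraries differed in sign. Klf3 had more from the C57 allele in both basal libraries (mean 0.25) and more from the SPRET allele in both IL-4 libraries (-0.25), where the parents differed by 0.61 and 0.64. In basal cells of the time course Klf3 was instead higher in SPRET than in C57, by 1.03. Klf6 had a mean of 0.26 in basal cells, with C57 higher in both libraries as between the parents (0.73), and of -0.073 with IL-4. Klf10 had 0.34 in basal cells (parents 1.17) and -0.011 with IL-4. In basal cells of the time course SPRET minus C57 was -0.13 for Klf6 and -0.05 for Klf10, and neither passed. Klf7 lay at or below 0.259 in every allele column, where adding 1 flattens a ratio, and its basal ratios of C57 to SPRET without that addition were 1.61 and 1.42.

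In the C57 and NOD hybrid 78.9% to 83.6% of genes were listed at 0 in a column, against 35.3% to 42.8% in the C57 and SPRET hybrid. Only Klf4 was above 0 in every allele column. Klf2, Klf3, Klf6, Klf7, Klf10, Klf13 and Klf16 were listed at 0 for both alleles in all 4 libraries, Klf9 had a value in 1 allele column, and Klf11 had values in all but 1 allele column. The 0 values here do not show absence, since Klf6 was the most abundant member in both parents. Klf4 had 59.9 to 87.3 from the C57 allele and 48.9 to 99.5 from the NOD allele in basal cells, and 162 to 202 from C57 and 209.6 to 249.4 from NOD with IL-4. The alleles rose by 1.31 and 1.70 on the log2 scale. Within single libraries, the log2 ratio of C57 to NOD for Klf4 was 0.288 and -0.187 in basal replicates 1 and 2. With IL-4 it was -0.615 in replicate 1 and -0.054 in replicate 2, where the alleles were nearly level (201.8 against 209.6). In the parents C57 was higher than NOD by 1.08 at 24 hours. The C57 allele was thus not higher in either IL-4 library. A higher NOD allele rested mainly on replicate 1, so a reversal of the parental direction is not shown.

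**Figure D4:**
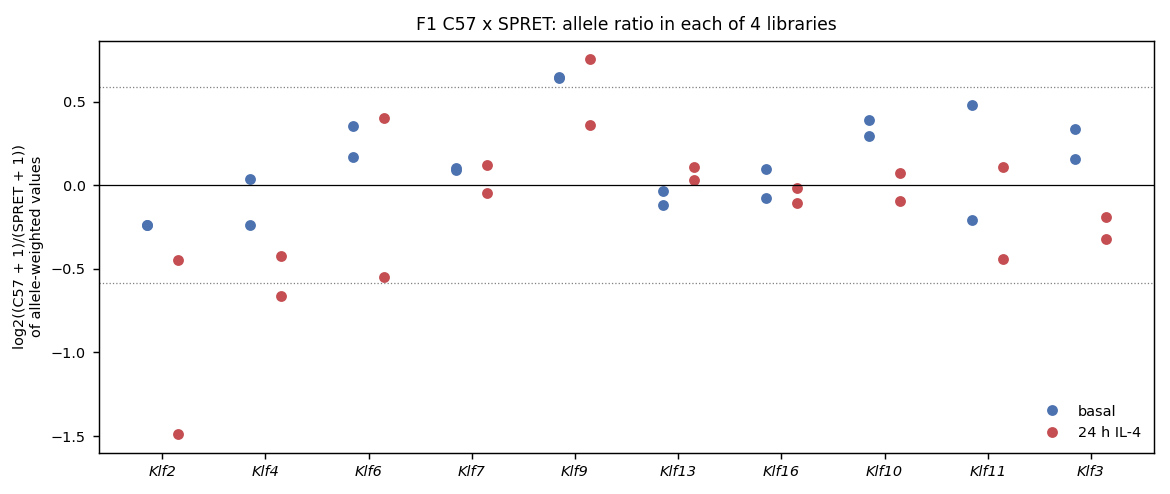
Log2 ratio of the C57 allele to the SPRET allele (1 added to each value) for the 10 members in each of the 4 libraries of the C57 and SPRET hybrid, basal or with IL-4; dotted lines mark 1.5-fold. Klf9 lies on the C57 side and Klf2 on the SPRET side in all 4 libraries.

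Genes that act with the family were described by the same test. Klf1, Klf5, Klf8, Klf12, Klf14, Klf15 and Klf17, the other family members listed, were too low to be tested in the 5-strain table, and Klf8 was the single one tested in the time course (0.774 to 1.63 TPM). Of the 5 genes of alternative activation, 20 of 25 gene and strain pairs rose at 24 hours and 0 fell, beside 34.6% of all gene and strain pairs called (20.5% higher, 14.1% lower), and Arg1, Mrc1 and Pparg rose in all 5 strains. Of 10 KLF cofactors, which include Ctbp1, Sin3a and Ep300, 15 of 50 pairs passed, 11 higher and 4 lower (6 and 5 with median-ratio scaling), a share near that of all genes. The 3 ligases that target KLF proteins (Fbxw7, Smurf1 and Wwp1) passed in 14 of 15 pairs, 12 higher and 2 lower (9 and 2 with median-ratio scaling). The 7 genes of the ERK5 and MEF2 pathway, which drives Klf2 and Klf4 in endothelial cells, passed in 14 of 35 pairs, 1 higher and 13 lower. All 7 were lower in BALB, where the median of all genes was -0.11, and 4 were with median-ratio scaling and 5 with quantile normalisation. Between Egr2MKO and Egr2WT, the alternative activation genes passed as higher in 2 and lower in 9 of 20 pairs, beside 12.4% and 7.89% of all gene and time pairs. The cofactors passed as higher in 6 and lower in 0 of 40 (3 and 0 with either scaling), beside 20.2% of all gene and time pairs called in either direction. Other lists were counted at 24 hours, where 20.5% and 14.1% of all pairs passed as higher and lower. Immediate-early genes passed as higher in 17 and lower in 8 of 45 pairs, and TGF-beta targets in 5 and 9 of 25. Glucocorticoid targets passed in 10 and 2 of 20 (7 and 4 with median-ratio scaling). Clock genes passed in 0 and 15 of 40 and SP factors in 1 and 1 of 15. In the time course immediate-early genes passed in 21 and 20 of 54, beside 11.4% and 11.9%. These lists were chosen with earlier results of these data known, the scalings were applied to them after the data were seen, and the counts are descriptions.

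Across the 29 libraries of the 5-strain table, genes whose log2 pattern was most like that of Klf4 were Plekhf1 (Pearson r = 0.96), Eif5a (0.96) and Cdh1 (0.95). Those most like Klf2 were Rcn2 (0.96), Aco1 (0.95) and Ctsk (0.94), and those most like Klf6 were Gm21188 (0.96), Siglec1 (0.94) and Parp12 (0.93). Between members, Klf4 and Klf7 had opposite patterns (r = -0.84), Klf3 and Klf16 likewise (-0.82), and Klf7 and Klf9 had like patterns (0.77). The points share strain, treatment and normalisation, so these correlations are given as descriptions.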

How the data were processed

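Expression tables held TPM values that the authors made with STAR, MMARGE and HOMER on mm10, 1 table each for the 5 strains, the time course and the Egr2 genotypes. Hybrid tables held allele-weighted values, deposited as TPM weighted by reads over strain variants. The authors' fold change and p-value columns from DESeq2 were not used, and a human table was not analysed here.

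TPM values were tested as log2(TPM + 1) for genes with at least 1 TPM in 2 libraries, by limma 3.58.1 (R 4.3.3) with 1 mean per group and an intensity trend, over 36 contrasts and 61 libraries, with Benjamini-Hochberg adjustment over all genes of a table. The code was tested on simulated data. Lengths in the C57 and SPRET hybrid table equalled the genomic span for 99.3% of genes, so only alleles of a gene were compared. Hybrid alleles were called different when all 4 libraries had 1 side higher and the mean passed 1.5-fold. All 10 members were named. Members and lists were chosen with earlier results of these data known. Alternatives were other pseudocounts, filters, scalings, a replicate block and leaving out each library. Depth was 4690000 to 32900000 tags per library.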

Additional observations from a re-analysis of the deposited data

Results flagged for a closer look

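The 24-hour response to IL-4 differed from that of C57 in the 5-strain table, by the limma test of the difference itself, for the following members, each value being a difference of log2 changes. In BALB it was 1.01 for Klf2 (adjusted p = 1.2e-03) and -0.46 for Klf9 (adjusted p = 4.3e-03). In NOD it was 0.58 for Klf13 (adjusted p = 2.9e-04), -0.65 for Klf4 (adjusted p = 3.1e-04) and -0.58 for Klf9 (adjusted p = 2.1e-04). In PWK it was 0.34 for Klf13 (adjusted p = 0.035), -0.47 for Klf3 (adjusted p = 0.037) and -0.41 for Klf4 (adjusted p = 0.026). In SPRET it was 0.72 for Klf10 (adjusted p = 1.4e-03), 0.45 for Klf16 (adjusted p = 7.5e-03) and 0.34 for Klf4 (adjusted p = 0.039). With median-ratio scaling the differences of Klf13 in PWK and of Klf16 and Klf4 in SPRET were 0.17, 0.26 and 0.15 and did not pass. Those of Klf3 and Klf4 in PWK were -0.63 and -0.57 with that scaling and passed. The causes were not tested.

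In the time course the response of SPRET differed from that of C57 by the same test. At 1 hour it was 0.77 for Klf10 (adjusted p = 2.0e-03) and -0.78 for Klf6 (adjusted p = 4.6e-04). At 6 hours it was 0.83 for Klf10 (adjusted p = 3.7e-04), -0.31 for Klf6 (adjusted p = 0.046) and 1.22 for Klf9 (adjusted p = 2.9e-03). At 24 hours it was -0.58 for Klf13 (adjusted p = 2.0e-03), 1.22 for Klf2 (adjusted p = 3.8e-03), -1.48 for Klf4 (adjusted p = 5.5e-08) and -0.75 for Klf6 (adjusted p = 6.6e-05). The sign of the Klf4 difference at 24 hours was negative here and positive in the 5-strain table, and the cause was not tested. Groups held 2 or 3 libraries, too few to search for single libraries far from the rest.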

How the results depend on the processing

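Of 141 member results that passed, 97 kept their call under every alternative tried and 44 lost it under at least 1, and 0 changed sign. Median-ratio scaling ended 15 calls, quantile normalisation 17, fitting only the groups compared 19, no filter on low values 10, a pseudocount of 0.1 TPM 5 and one of 5 TPM 2, while robust empirical Bayes and a filter of 5 TPM ended 0. Asking also for a change beyond 2-fold left 3 of the 24-hour calls, 8 of the basal strain calls, 1 of the strain response calls, 6 of the time course calls, 3 of the time course response differences, 3 of the Egr2WT calls and 0 of the Egr2MKO against Egr2WT calls. Fitting only the groups compared left 7 of the strain response calls, and quantile normalisation left 7 between Egr2MKO and Egr2WT (1 higher, 6 lower). In the C57 and SPRET hybrid, a pseudocount of 5 or a 2-fold margin left 0 members.

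Leaving out 1 library at a time gave 29 to 34 calls at 24 hours, 29 to 30 between basal strains, 8 to 14 for the strain response, 33 to 36 in the time course, 8 to 11 for its response difference, 9 to 13 in Egr2WT, 6 to 13 between Egr2MKO and Egr2WT, 0 to 1 for the difference of their responses, 1 to 2 in the C57 and SPRET hybrid and 0 in the C57 and NOD hybrid. The count between Egr2MKO and Egr2WT was 6 without Egr2WT 24-hour replicate 1 or replicate 2 and 7 without Egr2WT 6-hour replicate 1. The 1 call for the difference of responses appeared without Egr2MKO basal replicate 1. The hybrid count of 1 was that without either IL-4 library.

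Samples with the same replicate number did not deviate together throughout (BALB pairs had correlations of 0.3330, 0.1529 and 0.0887), so the numbers were not taken as pairs. With a replicate block the counts were 31, 30, 11, 37, 9, 11, 11 and 0 in the order above up to the difference of the Egr2MKO and Egr2WT responses, and 2 calls were lost, Klf6 at 24 hours in C57 and Klf4 at 1 hour in Egr2WT. The C57 libraries at 0 and 1 hour had a correlation of -0.1429; crossing their numbers gave 454 genes called against 478 without a block and 479 with it, and 37 and 9 member calls in the time course. Without counts the depth of single values is not known, groups of 2 libraries limit the time course and Egr2 results, and low members such as Klf11 lie near the filter.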
